A study of Drosophila melanogaster with 4 samples.

Results

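The H3K23ac regions of 3R, the right arm of Drosophila melanogaster chromosome 3, were taken from 3 lists of enriched regions. A region was included when its midpoint lay between position 1 and position 25905053 of the arm (FlyBase release 5, as for all positions here), which leaves out the 2 Mb at the telomeric end. Regions with a midpoint from 2480000 to 2830000 or from 12480000 to 12800000 were also left out, because these windows enclose the Antennapedia and bithorax complexes, the clusters of Hox genes that set segment identity. This took 2300 of the 9467 regions of replicate 1, 2238 of the 9142 regions of replicate 2 and 3801 of the 16244 regions of a combined list for the whole series. Of the other 3R regions, 236, 250 and 302 lay at the telomeric end, 3, 6 and 22 in the first left-out window, and 0, 0 and 13 in the second. The stretch that remained was 25.2 Mb long.

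The flies were adults of the wild-type Oregon-R strain, of mixed adult stage, grown in population cages. No further allele, treatment or age is given. Chromatin from head nuclei, crosslinked with formaldehyde, was immunoprecipitated with an antibody to H3K23ac and sequenced. There were 2 ChIP samples, numbered as replicates 1 and 2, and 2 samples of unenriched input chromatin, of which no list was used. Nothing says that the replicates were separate fly collections, and their spread may be technical. Heads hold neurons, glia, muscle, fat and cuticle-forming cells, and a region marked in few cells cannot be told apart from one marked weakly in many. The labelled tissue was not checked against marker genes, since no gene annotation of release 5 was used. Read numbers are not given, so the depth is unknown.

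H3K23ac is the acetylation of lysine 23 in the tail of histone H3. Acetyl groups on histone tails are placed by acetyltransferases, removed by deacetylases and bound by proteins with a bromodomain. In flies the acetyltransferase Enok is known to acetylate this lysine. Marks of this kind are found over active genes, while heterochromatin next to the centromere is packed with repeats and carries other marks. The sequence of 3R is numbered from the centromere outwards, so the first regions of the list lie next to the pericentric heterochromatin.

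Regions on 3R were short and close together, and much alike in number and width in both replicates. They covered 23.5% of the stretch in replicate 1 and 22.97% in replicate 2, with a mean of 23.2% ± 0.379 (SD, n = 2 here and below). Their number was 91.1 per Mb in replicate 1 and 88.7 per Mb in replicate 2. Median widths were 1920.5 and 1926.5 bp. The shortest region was 1301 bp in both lists, a shared lower limit that makes the small widths partly alike and that gaps do not have. Quartiles of width lay at 1515 and 2806 bp for replicate 1, and at 1511 and 2851 bp for replicate 2. Regions under 2 kb made up 54.1% and 53.2% of the lists but only 33.1% and 32.4% of the covered length. At the other end, 10% of the regions exceeded 4504 bp in replicate 1 and 4444 bp in replicate 2.

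Gaps between neighbouring regions varied far more than widths did. Their medians were 3210 bp (replicate 1) and 3245 bp (replicate 2). Gaps under 1 kb were 25.2% of all gaps in replicate 1 and 25.3% in replicate 2. Another 23.8% and 24.8% were at least 10 kb long, and these held 74.3% and 75.6% of all the bases between regions. Most unmarked sequence of 3R thus lay in a minority of long gaps, and many regions stood in close groups. Joining regions less than 1000 bp apart turned the 2300 regions of replicate 1 into 1722 and the 2238 of replicate 2 into 1673. The longest group had 6 regions in replicate 1 and 7 in replicate 2.

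**Figure D1:**
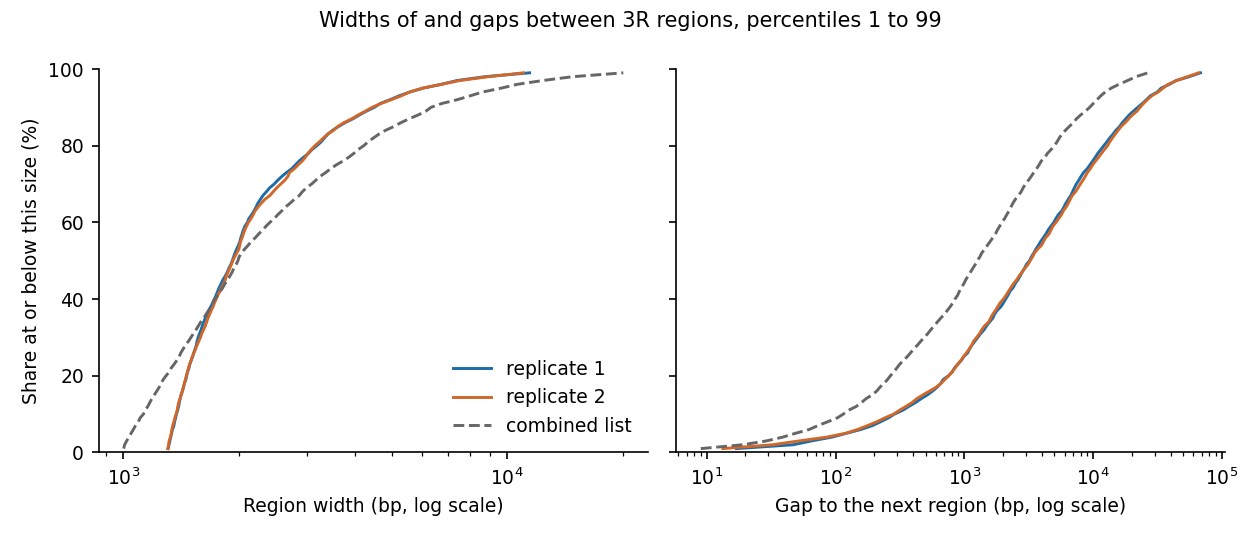
Widths of 3R regions (left) and gaps to the next region (right), in bp on log axes, against the share of regions or gaps at or below that size, for the 2 replicates and the combined list. The lines of the replicates lie on each other, with median gaps of 3210 and 3245 bp, while the combined list has shorter gaps, with a median of 1259 bp.

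Each region carries a score, the authors' own value, which behaves as a log2 ratio with an unknown zero point in each list. Scores are therefore read within a list only. The lowest, median and highest scores were 0.25, 0.56 and 0.93 in replicate 1 and 0.16, 0.56 and 1.01 in replicate 2. Wider regions scored higher, with a Spearman rho of 0.60 over the regions of replicate 1 and 0.58 in replicate 2. Regions of one list share a library, so this is a description and carries no p-value. Regions with at least 10 kb free on both sides, 178 in replicate 1 and 197 in replicate 2, had median widths of 1593.5 and 1680 bp and median scores of 0.53 and 0.55. Regions with under 1 kb free on both sides, 184 and 181, had medians of 2169 and 2232 bp and of 0.57 in both lists. Of the isolated regions, 38.8% in replicate 1 and 50.3% in replicate 2 overlapped a region of the other replicate. Of the crowded ones, 85.9% and 87.8% did. Wider regions in denser surroundings meet another list more often by position alone, and the part of this in the difference was not tested.

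Most regions of each replicate met a region of the other, but less than 50% of the bases covered in either were covered in both. An overlap of 1 bp or more with the other list was found for 68.7% of replicate 1 regions and for 71.1% of those in replicate 2. Together they covered 8.02 Mb, of which 3.71 Mb was covered in both, a Jaccard index of 0.463. No overlap was found for 721 regions of replicate 1 and 646 of replicate 2, and a reciprocal overlap of 50% was met by 44.6% on average. The same shares were not counted over the other arms or the whole lists. Whether they are particular to this arm was thus not tested. Overlap rose with width. Of regions of 1301 to 1500 bp, 47.6% in replicate 1 and 48.4% in replicate 2 were shared. For regions of 3001 to 5000 bp the shares were 97.3% and 92.1%. All 35 regions of at least 10 kb in replicate 1 and all 33 in replicate 2 met the other list. Wider regions reach an overlap of 1 bp more often by position alone, and the part of this in the rise was not tested. Overlap also rose with the score, from 55.3% in the lowest 25% of scores to 83.3% in the highest 25% in replicate 1, and from 63.4% to 83.0% in replicate 2.

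In 990 cases a region of one replicate met exactly 1 region of the other and the reverse. The starts of these pairs differed by a median of 354.5 bp and the ends by 353 bp, without a shift to either side: the median signed differences were 10 bp and -14 bp. Their widths had a Spearman rho of 0.50 and their scores one of 0.41. The rank of a single region in one replicate therefore gave only a loose guide to its rank in the other.

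Most of the highest scores of one replicate ranked lower in the other. Regions picked as the highest of a list tend to do so, and this part was not tested. The top score of replicate 1, 0.93, belonged to 25703458 to 25708695, and the region that met it in replicate 2, 25702820 to 25707628, scored 0.87 there. The second of replicate 1, 3657210 to 3660712 at 0.88, met a region that ranked 1266 among the 3R regions of replicate 2, at 0.56. The next 3 of replicate 1 were 12882266 to 12885583 at 0.87, 10643762 to 10647099 at 0.87 and 18789589 to 18792570 at 0.86. Regions that met them ranked 444, 322 and 171 in replicate 2. The top of replicate 2 was 7198026 to 7203195 at 1.01, which met a region ranked 132 in replicate 1, at 0.72. It was followed by 890120 to 894439 at 0.91 and 9568168 to 9576419 at 0.91, with partners ranked 22 and 25. The last of its top 5, 25608576 to 25613484 at 0.85, had a partner ranked 33. Only the place at 25702820 to 25708695 was in the top 5 of both lists. These ranks are over all regions of 3R, the telomeric end included, 2539 in replicate 1 and 2494 in replicate 2.

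Cover was uneven along 3R, in the same places in both replicates. In 250 windows of 100 kb the lowest, median and highest cover were 1.41%, 21.2% and 87.7% in replicate 1 and 0%, 20.6% and 84.6% in replicate 2. Over these windows the Pearson r between the replicates was 0.94 and the Spearman rho 0.91. This is a description, as windows of a library are not replicates and both lists were called on the same sequence. The replicates differed by a median of 2.89 percentage points in a window and by at most 15.8. That largest difference was in 5.6 to 5.7 Mb, at 25.05% in replicate 1 and 9.25% in replicate 2, right beside the most covered window of the arm. Replicate 1 was higher in 127 windows and replicate 2 in 123.

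**Figure D2:**
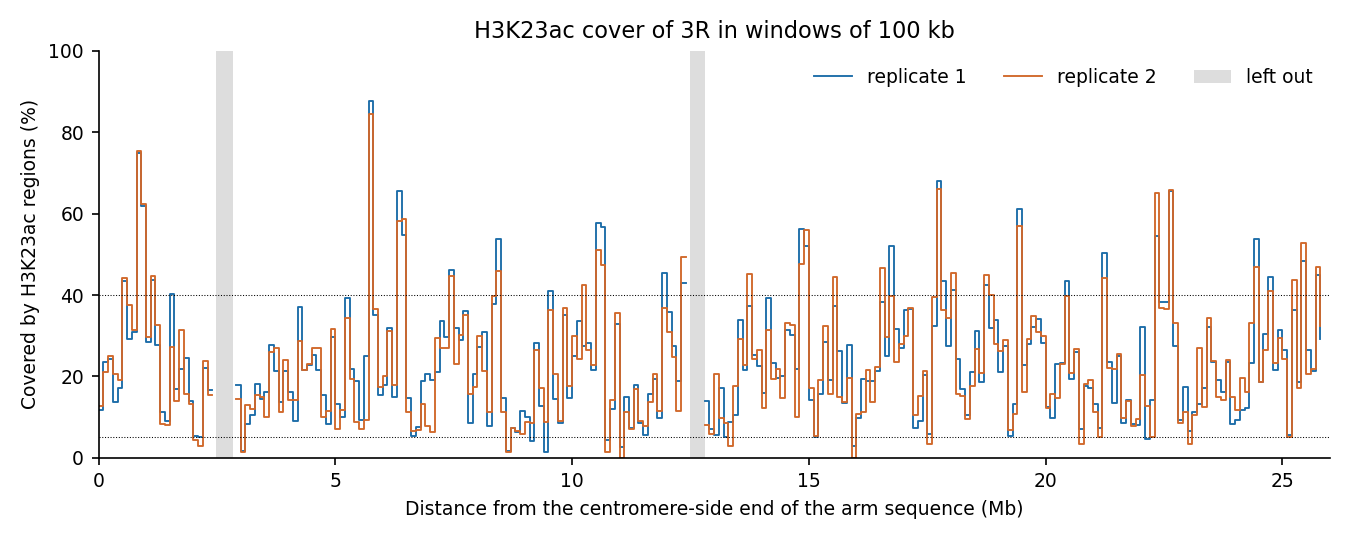
Share of each 100-kb window covered by H3K23ac regions (y, %) against its distance from the centromere-side end of the 3R sequence (x, Mb), for both replicates, with the left-out windows in grey and dotted lines at 40% and 5%. Peaks and troughs coincide between the replicates, and the highest peak, at 5.7 to 5.8 Mb, reaches 87.7% and 84.6%.

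**Figure D3:**
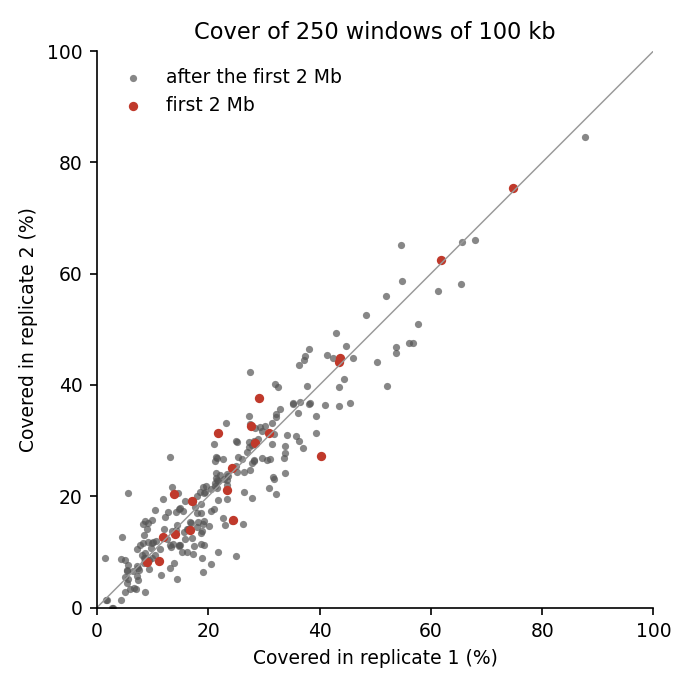
Cover of the 250 windows of 100 kb in replicate 1 (x, %) and replicate 2 (y, %), with the 20 windows of the first 2 Mb in red and a line of equal values. Points lie along the line over the whole range, and the red points span means from 8.55% to 75.1%.

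Densely covered windows were scattered as short peaks rather than gathered in one part of the arm. In both replicates 25 windows were at least 40% covered. They made up 10% of the windows and held 23.3% of the covered length, and 70 windows held 50% of it. Of the 25, 8 had a neighbour of the same class. Most windows have neighbours on both sides, so the 10% share of this class is no measure of what random placement would give. The mean cover of a window had a Pearson r of 0.27 with that of the next window and 0.04 with that of the second next, as a description over windows of the same libraries.

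The most covered window was 5.7 to 5.8 Mb, at 87.7% in replicate 1 and 84.6% in replicate 2. Next were 0.8 to 0.9 Mb at 74.8% and 75.3%, 17.7 to 17.8 Mb at 68.0% and 66.1%, 22.6 to 22.7 Mb at 65.6% and 65.7%, and 0.9 to 1 Mb at 61.8% and 62.4%. Dense windows were picked by cover, which grows with the number and width of regions, so more or wider regions there are partly built in. The 25 dense windows had both more and wider regions than the arm as a whole. They held 14.6 regions per window in each replicate, against 9.15 and 8.89 over all windows. Their median widths were 2690 bp and 2311 bp, against 1919.5 and 1931 bp, and they held 22 of the 35 and 21 of the 33 regions of at least 10 kb in these windows. Median scores in the dense windows were 0.61 in replicate 1 and 0.58 in replicate 2, and over all windows 0.56 in both.

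The least covered windows were 11 to 11.1 Mb, at 2.74% in replicate 1 and 0% in replicate 2, and 15.9 to 16 Mb, at 2.88% and 0%. Next came 3 to 3.1 Mb at 1.58% and 1.42%, 8.6 to 8.7 Mb at 1.77% and 1.38%, and 10.7 to 10.8 Mb at 4.26% and 1.36%. These 5 were the only windows below 5% in both replicates, and no 2 of them were neighbours. The last of them adjoined a dense stretch: cover in 10.5 to 10.6 Mb was 57.6% and 51.0%, in 10.6 to 10.7 Mb 56.8% and 47.5%, and then fell to these few percent within the next 100 kb. Moving the grid by 50 kb raised the number of windows below 5% from 5 to 9, and keeping the Hox windows in raised it to 11.

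Compared with the other autosomal arms, 3R had few poorly covered windows. Arms 2L, 2R and 3L were taken without the 2 Mb at their telomere side. Windows of 100 kb with under 5% cover made up 3.20% of 3R in replicate 1 and 4.40% in replicate 2. On the other arms together they made up 18.8% and 19.2%. The difference of -15.2 ± 0.623 percentage points was larger than the spread between replicates. With 2 replicates a two-sided exact test on signs cannot give a p below 0.5, so no test was made of this or any other comparison between arms. The 3 arms differed among themselves, at 27.1% ± 1.35 on 2L, 19.3% ± 0.314 on 3L and 9.69% ± 0.370 on 2R.

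The size of this difference depended on the list and on which sequence was counted. In the combined list it was -7.99 points, and -1.59 points without the ends of the arms at either side. In the replicates, without the centromere-side 2 Mb of every arm, the share was 4.13% ± 0.922 on 3R and 12.99% ± 0.125 on the other arms, and 2R, at 2.05% ± 0.414, was then below 3R. The Hox windows left out of 3R were themselves nearly unmarked. The first was 1.45% and 3.07% covered in replicates 1 and 2, and the second 0% in both, and with them kept in the difference was -12.8 points. Under each of these choices 3R had a smaller share of such windows than 2L and 3L did together with 2R.

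Mean cover of 3R lay between that of the other arms. It was 23.2% ± 0.379 on 3R, 26.4% ± 0.358 on 2R, 18.8% ± 0.381 on 3L and 17.3% ± 0.175 on 2L. The gap to the other arms together was 2.61 ± 0.191 percentage points. Without the centromere-side 2 Mb of every arm it was 0.682 ± 0.202 points. With that sequence left out, the difference went from 5.94 to 4.16 points against 2L and from 4.40 to 2.80 against 3L. Against 2R it went from -3.16 to -5.71 points. Most of the difference from 2L and from 3L, each taken alone, thus remained. Regions of 3R were narrower than those of 2R by a median of 105 bp ± 4.596, and their median gap was 692 bp ± 143 longer. Against 3L, 3R had 14.9 ± 0.207 more regions per Mb, with median widths that differed by 27.5 bp ± 18.4. Regions of at least 10 kb numbered 1.35 ± 0.0560 per Mb on 3R, 0.785 ± 0.101 on 2L, 0.776 ± 0.0314 on 3L and 1.70 ± 0.406 on 2R, and the difference from 2R was within the spread between replicates.

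Next to the centromere, regions of 3R began close to the start of its sequence. The first 100 kb was only 11.8% covered in replicate 1 and 12.7% in replicate 2. The first region was 38730 to 40843 in replicate 1, 39088 to 42014 in replicate 2 and 37682 to 42024 in the combined list. Cover of the first 2 Mb was 28.4% in replicate 1 and 28.7% in replicate 2, against 23.1% and 22.5% over the rest of the stretch. The ratio of 1.25 ± 0.0334 was above 1 in both replicates. The first 2 Mb was singled out as well covered with earlier results of these data known. A ratio above 1 and a high rank among blocks thus follow from the choice and are no support for it. In the replicate lists the first 2 Mb was the most covered of 12 successive blocks of 2 Mb, at 28.6% ± 0.221. Next were 16 to 18 Mb at 27.2% ± 0.280 and 18 to 20 Mb at 27.0% ± 0.392. In the combined list 22 to 24 Mb at 55.8% and 16 to 18 Mb at 52.4% were above the first 2 Mb at 51.6%. In the replicates the least covered block came right after the first 2 Mb, from 2 to 4 Mb, at 14.1% ± 0.256 outside the first Hox window.

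The high cover of the first 2 Mb sat in its middle, from 0.5 to 1.3 Mb. That stretch was 42.5% covered in replicate 1 and 45.0% in replicate 2. The remainder of the first 2 Mb was at 19.0% and 17.9%, below the rest of 3R. The stretch from 0.5 to 1.3 Mb was chosen after its cover was seen, so a lower remainder follows from the choice. The rest of 3R kept its own dense windows. The peak was at 0.8 to 1 Mb, both windows among the 5 most covered of the arm. Without this stretch the first 2 Mb was 24.1% ± 0.173 covered, and its ratio to the rest of the arm 1.06. In its first 0.5 Mb, the sequence nearest to the centromere, cover by these regions was 18.1% and 19.3%.

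Regions of the first 2 Mb did not score higher than others. Their median score was 0.56 in replicate 1 and 0.55 in replicate 2, and that of the other regions 0.56 in both, with differences of 0.00 and -0.01. Their number was 97.5 ± 2.83 per Mb, against 89.3 ± 1.64 in the rest. The combined list had the opposite order, with 139 regions per Mb against 151.6, and median gaps of 1603 against 1251 bp. In the replicates their median width was 2006 bp ± 98.99, against 1917 bp ± 2.83. Wide regions were more frequent there, which the choice of a well-covered stretch partly builds in. Each replicate had 7 regions of at least 10 kb in the first 2 Mb, a rate 2.90 times that of the rest in replicate 1 and 3.13 times in replicate 2, and 6 of the 7 lay between 0.5 and 1.3 Mb in both lists. Without 0.8 to 1 Mb the rate was 1.94 ± 0.393 per Mb, against 1.16 ± 0.0609 in the rest, and in the combined list the rates were 10.5 and 6.63 per Mb. A wide gap lay past the dense part: from 1349219 to 1442374, 93156 bp carried no region in either replicate, the third longest such stretch of 3R.

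The 5 widest combined regions of the first 2 Mb were 1125096 to 1158738, 798500 to 828630, 847450 to 872330, 485930 to 505510 and 913932 to 933344, between 33643 and 19413 bp wide. Replicate 1 covered them over 72.6%, 89.6%, 92.0%, 82.3% and 96.3% of their length, and replicate 2 over 73.3%, 81.2%, 90.1%, 85.0% and 97.9%. The third of them held the widest replicate 1 region of the first 2 Mb, 19351 bp.

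The centromere sides of the other arms were different over the same distance. In the last or first 2 Mb next to the centromere, 2R was 8.39% ± 0.0223 covered, 3L 7.03% ± 0.554, X 4.95% ± 0.719 and 2L 4.80% ± 0.0461. The sequences of those arms began with long unmarked stretches. Counted from the centromere-side end, the first region lay 861 and 990 kb inwards on 2L in replicates 1 and 2, 1567 and 1569 kb on 2R, 1570 and 1544 kb on 3L and 154 kb on X in both. On 3R it lay 38.7 and 39.1 kb inwards.

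When the 2 Mb were counted from the first region of each arm instead, the order changed. Arm 3R, at 28.8% ± 0.188, was then below 2R at 35.8% ± 1.53 and 3L at 35.0% ± 1.32. It stayed above 2L at 16.3% ± 0.187 and X at 5.61% ± 0.693. The comparison of centromere sides thus depended on the base from which distance was counted. Release 5 also holds heterochromatin of this arm on a scaffold of its own, 3RHet, on which no list had a region. How far each arm sequence reaches into heterochromatin was not tested.

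**Figure D4:**
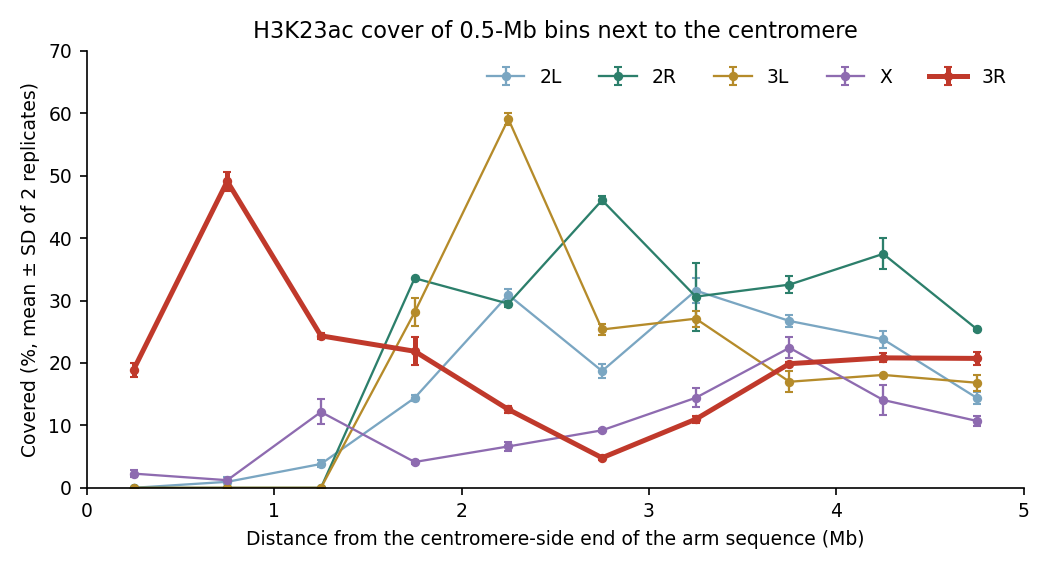
Share of 0.5-Mb bins covered by H3K23ac regions (y, %, mean ± SD of 2 replicates) against the distance from the centromere-side end of each arm sequence (x, Mb), for 5 arms and with all regions of 3R included. Cover of 3R peaks at 49.1% in the second bin and falls to 4.81% at 2.5 to 3 Mb, the bin that holds most of the first Hox window, while 2R and 3L have none up to 1.5 Mb.

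Wide domains on 3R were recovered in both replicates, but often in several pieces. Regions of at least 10 kb numbered 35 in replicate 1 and 33 in replicate 2, 1.52% and 1.47% of the regions and 8.24% and 7.73% of the length. The widest measured 23550 bp (replicate 1) and 22635 bp (replicate 2). The other replicate covered a median of 91.5% of the replicate 1 domains, from 47.4% to 100%, and a median of 93.6% of the replicate 2 domains, from 73.6% to 100%. In 25 of the 35 and 22 of the 33 cases it did so with 2 or more regions. Domains of this width in one list met a domain of this width in the other in 19 of 35 and 18 of 33 cases. Their lowest, median and highest scores were 0.59, 0.72 and 0.86 in replicate 1 and 0.54, 0.72 and 0.80 in replicate 2. The medians were above those of all 3R regions, 0.56 in both lists, while the lowest score of replicate 2 was below.

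The combined list often held a single region over such pieces, though how it was made is not given. It had 175 regions of at least 10 kb on this stretch, which made up 23.5% of its length, and 13 of at least 30 kb. The widest was 53457 bp, from 5700666 to 5754122, with a score of 0.66. Replicate 1 covered 87.3% of it with 7 regions and replicate 2 91.1% with 5, of which the widest was 22635 bp. It fills much of the most covered window of the arm. The second, 19432488 to 19478508, was 46021 bp wide and was covered over 87.8% and 88.0% by 7 and 6 regions. The third, 8377980 to 8421646, was 43667 bp wide, and its cover of 86.0% and 78.6% came from 8 and 11 regions. Next, 22624674 to 22667980, 43307 bp wide, had 98.7% of its length covered by only 3 regions in replicate 1, of 11565 bp and more, and 89.1% by 7 in replicate 2.

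After it, 10576464 to 10617222, was 40759 bp wide, with 88.4% and 74.9% covered. It lay in the dense stretch that gave way to an almost unmarked window at 10.7 Mb. The sixth, 22300726 to 22336684, had the lowest cover in replicate 1 of the 10, at 64.3%, against 80.7% in replicate 2. The seventh, 18904208 to 18938612, covered over 86.3% and 77.3%, ended where a stretch of 58023 bp without any replicate region began, at 18938575. The eighth was the domain at 1125096 in the first 2 Mb. The ninth, 20414784 to 20448048, had the highest score of the 10, 0.69, and included a replicate 1 region of 23495 bp. The tenth, 17716002 to 17748330, was covered over 90.1% and 79.6%. Over the 10, the bases covered in both replicates at once ranged from 54.5% to 88.6% of the domain. The combined list stands for the same samples, so this cover is no independent support for the domains.

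**Figure D5:**
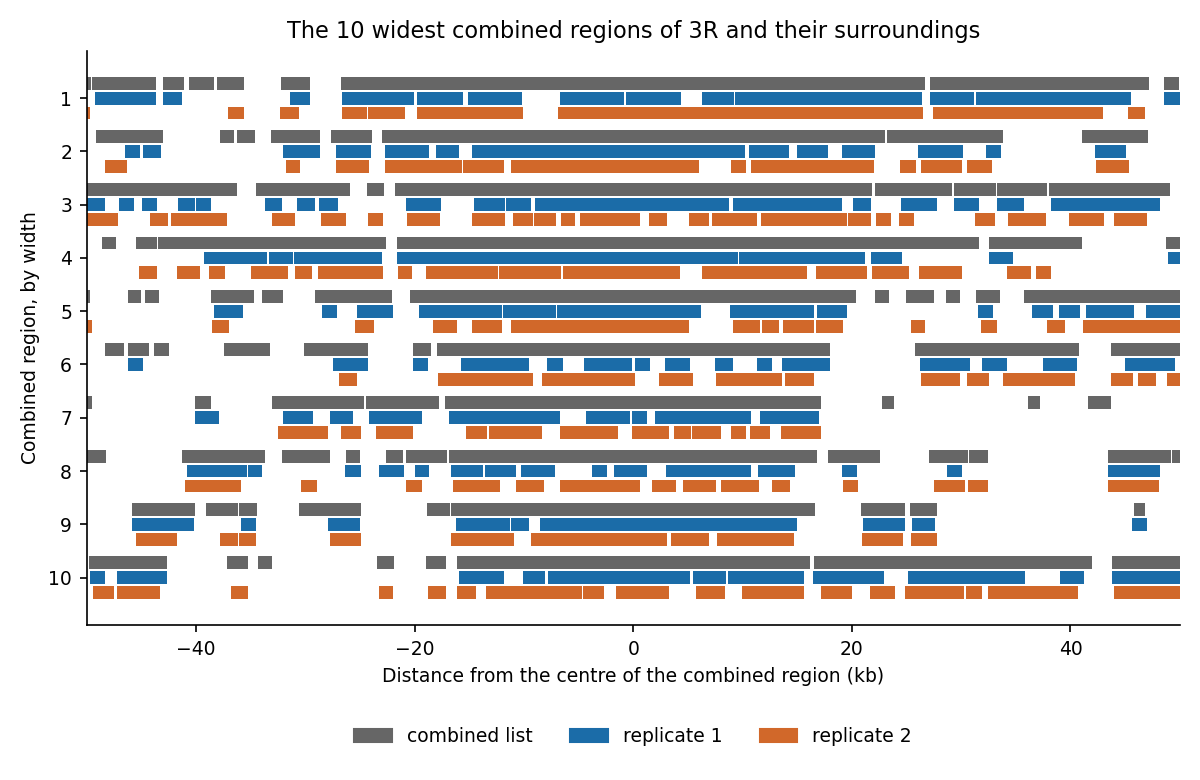
The 10 widest combined regions of 3R (rows, widest on top), each with the regions of the combined list (grey), replicate 1 (blue) and replicate 2 (orange) within 50 kb of its centre (x, kb). Each grey bar at the centre is filled by several blue and orange bars, 7 and 5 in the widest, whose breaks fall at different places.

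Unmarked stretches were many but short. Of the 25.2 Mb, 68.2% had no region in either replicate. Stretches of at least 50 kb without a region in both lists numbered 30, with 1.92 Mb in all, 7.63% of the sequence and 11.2% of what was unmarked. Only 1 reached 100 kb, 15905269 to 16010844, with 105576 bp. The next was 2830001 to 2923602, 93602 bp long, which begins at the edge of the first Hox window and is cut there. After the stretch at 1349219 came 9442489 to 9528154 with 85666 bp, 21036860 to 21117444 with 80585 bp and 15155479 to 15234828 with 79350 bp. The others of the 10 longest were 2035360 to 2102471, 25082854 to 25149458, 19270805 to 19336617 and 4761449 to 4826968, between 67112 and 65520 bp long.

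Long stretches in a single replicate were often broken by narrow regions in the other. In replicate 1 the longest was 121785 bp, from 15905269 to 16027053, with 1 region of 2178 bp in replicate 2 inside it. In replicate 2 it was 145571 bp, from 8631591 to 8777161, with 2 regions in replicate 1 that made up 3441 bp. Replicate 1 alone had 57 stretches of at least 50 kb and replicate 2 56, against 30 when both had to be empty.

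The long stretches were spread over the arm at a median distance of 445537 bp, but 5 pairs of neighbours were less than 100 kb apart. The longest run between 2 of them was 2927730 bp, from 16010845 to 18938574, which starts at the end of the longest stretch. It was 27.97% covered in replicate 1 and 27.5% in replicate 2.

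The combined list reached into these stretches. It had 157 regions in the 30 of them, which together with the ends of others covered 13.1% of their length, from 1.04% to 44.0% in single stretches. The longest stretch of the arm held 14 combined regions, of at most 1887 bp, over 18.7% of its length. Only 11015500 to 11072877 had no combined region with its midpoint inside. The stretch from 24191557 to 24247567 had the most cover, 44.0%, by 15 combined regions.

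Over the whole stretch, the combined list covered 49.3%, with 150.6 regions per Mb. It took in 2294 of the 2300 regions of replicate 1 and 2231 of the 2238 of replicate 2. Of its own 3801 regions, 42.8% met no replicate region (exact Clopper-Pearson 95% interval 41.2 to 44.4) and 29.7% met regions of both replicates (28.3 to 31.2). A further 14.7% met replicate 1 alone and 12.8% replicate 2 alone. These intervals are for counting error and nothing else. Such shares were not counted over the other arms or the whole list, so whether they are particular to this arm was not tested. Regions in both had a median width of 4775 bp, a median score of 0.46 and 59.2% of all combined bases. Regions that met none had medians of 1361 bp and 0.36, with 20.1% of the length. In the first 2 Mb, 36.7% were in both (31.0 to 42.7) and 33.5% in neither (27.9 to 39.3). In the rest, the shares were 29.2% (27.7 to 30.7) and 43.5% (41.9 to 45.2). Regions of a list are not replicates, so no difference is read from these intervals. The first 2 Mb was also singled out as well covered, and its combined regions were wider, with medians of 2324 against 1975 bp. Both raise overlap by position alone, and their part was not tested.

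The top scores of the combined list belonged to narrow regions that no replicate held. The 5 highest on this stretch were 4236980 to 4237986 at 3.30, 6082438 to 6083438 and 25232434 to 25233434 at 2.41, 21153826 to 21154826 at 1.16 and 13341578 to 13342728 at 0.93. They were 1001 to 1151 bp wide, under the 1301 bp of the shortest replicate region, and none overlapped a region of either replicate. The sixth, 25702774 to 25708648 at 0.81, overlapped the region with the top score of replicate 1 and the one of replicate 2 that met it.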

How the data were processed

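The authors deposited 3 lists of enriched regions, 1 per ChIP replicate and a combined one, on FlyBase release 5 per the file headers. The submitters' processing notes name Bowtie 0.12.7. Caller, threshold, filters, read numbers and how the lists were combined: not given in the sources used here. The authors deposited a score per region that was read as log2, although no header or label names its unit. Raising 2 to score differences gave ratios of whole numbers in 100% of 3R regions of replicate 1, 100% of replicate 2 and 99.6% of the combined list (relative tolerance 1e-12, denominators up to 20000).

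Positions are 1-based. Cover is the length of the included regions over the length of the stretch. Windows of 100 kb that touched a Hox window, 9 in all, were left out of window counts. Values of replicates are given as mean ± SD, with no test. Named regions followed a rule by width, score, cover and gap length: the 10 widest combined regions, the 5 highest scores of each replicate, the 5 most and 5 least covered windows, the 10 longest unmarked stretches, the 5 widest combined regions of the first 2 Mb and the first region of each list. Other named positions, among them 0.5 to 1.3 Mb, the sixth highest and other combined scores and the unmarked stretches beyond the first 10, were chosen after their values were seen. The members, stretches and rules were chosen with earlier results of these data known. Genes were not assigned, because the gene table used belongs to release 6, and no sequence is shown for the same reason. Interval arithmetic was tested on simulated data, with 0 mismatches in 20 runs. Python 3.11.15, numpy 2.4.6, scipy 1.17.1 and pandas 2.3.3 were used. Alternatives were merging of regions under 1000 bp apart, regions above the median score, other overlaps, window grids and thresholds, the combined list, and leaving out a replicate.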

Additional observations from a re-analysis of the deposited data

How the results depend on the processing

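Of 79 recomputed values, 51 shifted and 28 did not. A shift was a change of over 1 SD, of over 1.5 times for counts, beyond the exact interval for the share of combined regions that met both lists, and any change for the Jaccard index, which has no SD. The score difference of the first 2 Mb, within 1 SD of 0, was below 0 on average and above it for the first 1 Mb and without replicate 2. A mean of 2 replicates cannot shift past 1 SD when either is left out, so those 20 values say nothing of stability. Their ranges were 22.97 to 23.5% for cover, 88.7 to 91.1 regions per Mb, 1920.5 to 1926.5 bp for width, 0.56 for both scores, 3210 to 3245 bp for gaps, 1.23 to 1.28 for the ratio of the first 2 Mb to the rest, -0.01 to 0.00 for the score difference there, 33 to 35 broad regions, 2.47 to 2.74 points for cover against other arms and -15.6 to -14.8 points for poorly covered windows. Overlap measures need both replicates and were not recomputed. Where construction does not show it, the cause of a shift was not tested. Depth is unknown, so what it limits cannot be given. No paired analysis was possible because the input samples, which share replicate numbers with the ChIP samples, had no list that was used.

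Merging regions under 1000 bp apart gave 24.2% cover, 67.3 regions per Mb, a median width of 2078 bp, a median gap of 5670.5 bp, a Jaccard index of 0.480 and a mean of 95.5 broad regions. Regions above the median score gave 13.2% cover, 37.3 per Mb, 54.7% overlap between replicates, a Jaccard index of 0.377, 1.15 points over the other arms and 27.6% of combined regions in both replicates. The combined list gave 49.3% cover, 150.6 per Mb, a median width of 1987 bp, a median gap of 1259 bp, a ratio of 1.05 for the first 2 Mb, a score difference of -0.0115, 179 windows of at least 40% and 0 below 5%, 175 broad regions, 2 long unmarked stretches, 5.79 points over other arms in cover and -7.99 points in poorly covered windows. With the Hox windows kept, cover was 22.7%, density 87.8 per Mb, the ratio 1.29, windows below 5% 11, and the differences from other arms 2.04 and -12.8 points. Without both arm ends those differences were 0.682 and -8.86 points.

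The ratio was 1.49 for the first 1 Mb, 1.06 for the first 3 Mb and 1.06 without 0.8 to 1 Mb, which was chosen after the data were seen. The score difference for the first 1 Mb was 0.0088. Regions of at least 2000 bp had a median score of 0.62. A reciprocal overlap of 50% gave 44.6% shared. Thresholds of 30% and 50% gave 54 and 11 dense windows. Thresholds of 2% and 10% gave 2 and 34 sparse ones, with differences from other arms of -10.6 and -12.1 points, and a grid moved by 50 kb gave 9. Minimum widths of 5 and 20 kb gave 178 and 3.5 broad regions on average, and minimum lengths of 30 and 100 kb gave 113 and 1 unmarked stretches. Of combined regions, 18.4% were in both replicates at 50% of their length, and 37.3% among those at least as long as the shortest replicate region.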
